A study of Mus musculus with 8 samples.

Results

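Fatty acid oxidation genes and targets of the nuclear receptor PPAR-alpha form a set of 41 genes, listed by symbol for what they encode, with earlier results of these data known. All 41 had exactly 1 row among the 41388 features counted, all 41 are annotated as protein coding, and all 41 were among the 12270 genes that entered the test. Liver RNA was sequenced from littermate db/db mice of the strain given as C57B/6J, which carry a leptin receptor that does not signal and become obese and diabetic. Mice were randomised at 5 weeks of age and injected in the tail vein with an adenovirus. The control virus carried green fluorescent protein (AdGFP, 4 libraries, genotype given as control) and the other carried NAMPT, nicotinamide phosphoribosyltransferase, the rate-limiting enzyme of NAD salvage (AdNAMPT, 4 libraries, genotype given as NAMPT overexpression). Both groups share the db/db background and an adenoviral injection, there is no uninfected or lean group, and age at sampling is given as 10 weeks after 4 to 5 weeks of overexpression. The study's methods describe the mice as male and give a shorter time from adenovirus to assay than the series description. Neither the labels nor the methods say which promoter drove the transgenes or whether these mice were fed or fasted when livers were taken.

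In the liver, long-chain fatty acids are activated to acyl-CoA, carried into mitochondria on carnitine and shortened by repeated rounds of dehydrogenation, hydration, a further dehydrogenation and thiolysis, with the acetyl-CoA that results feeding ketone body synthesis. Very long chains are shortened first in peroxisomes, and a smaller share is hydroxylated at the omega end by microsomal CYP4A enzymes. PPAR-alpha binds fatty acids and, paired with a retinoid X receptor, raises transcription of genes in each of these compartments, most strongly in rodents for the peroxisomal, CYP4A and acyl-CoA thioesterase genes. NAD accepts electrons in the second dehydrogenation of each round, and the NAD-dependent deacetylase SIRT1 acts on the PPAR-alpha coactivator encoded by Ppargc1a.

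Libraries held 12006713 to 19879814 counts, the 41 members took 1.39% to 2.32% of them, and no member fell below 35 counts in any library. Levels are given below as TMM-scaled CPM, the counts of a library scaled to a common library size, always in the order of replicates 1 to 4 of each group. Nampt itself, which checks the labels, stood at 107, 149, 159.5 and 148 TMM-scaled CPM in AdGFP and 144, 120.3, 172 and 168 in AdNAMPT. The groups overlapped (log2 fold change 0.08, SE 0.15, adjusted p = 0.915), so the RNA level of the targeted gene did not tell the libraries labelled AdNAMPT from those labelled AdGFP. Transgene reads and reads of the mouse gene, where both align there, are not separated by this count. AdNAMPT replicate 1 stood apart from the other 7 libraries, with a sample weight of 0.440 in the fit, a sum of 188.9 TMM-scaled CPM over 7 female-biased liver genes against 906 to 1179 elsewhere, and a sum of 2669 over 7 male-biased genes against 471 to 760. The members whose fold change turned sign without it are named below.

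No member passed an adjusted p of at most 0.05 between AdNAMPT and AdGFP in limma, with 0 of 41 called where 34 of all 12270 genes were (0.277%). The lowest adjusted p among the members was 0.476. At an unadjusted p under 0.05 there were 5 members of 41 (12.2%), where 9.69% of all genes passed, and edgeR's quasi-likelihood and exact tests and DESeq2 each placed 0 members there and called 0, where 8.0%, 6.70% and 6.85% of all genes had such a p. In no member did the groups stand clear of each other, where 4.79% of all genes had groups that did not overlap. Fold changes were higher in AdNAMPT for 22 members and lower for 19, or 53.7% higher against 50.4% of all genes, and their median was 0.02 on the log2 scale against 0.00 over all genes. With library size alone as the scaling, the median of all genes moved to 0.09 and 28 members were higher, of which 22 lay above that median. The count of members at an unadjusted p under 0.05 was 9 without AdNAMPT replicate 1 (22%, against 10.5% of all genes in that fit), 1 without AdGFP replicate 1 (2.44% against 7.84%) and 1 without AdGFP replicate 4 (2.44% against 7.78%). It was 2 without AdGFP replicate 3 (4.88% against 9.03%) and 2 without AdNAMPT replicate 4 (4.88% against 11.3%), and no member reached the adjusted threshold in any of these fits.

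The 95% intervals of the fold changes show how large a difference these libraries could have hidden. For 30 of the 41 members the whole interval lay within 1.5-fold in either direction, as it did for 74.1% of all genes, and for 37 it lay within 2-fold, against 92.9% of all genes. The intervals of Crat, Acot2, Acaa1b and Acot3 reached beyond 2-fold.

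**Figure D1:**
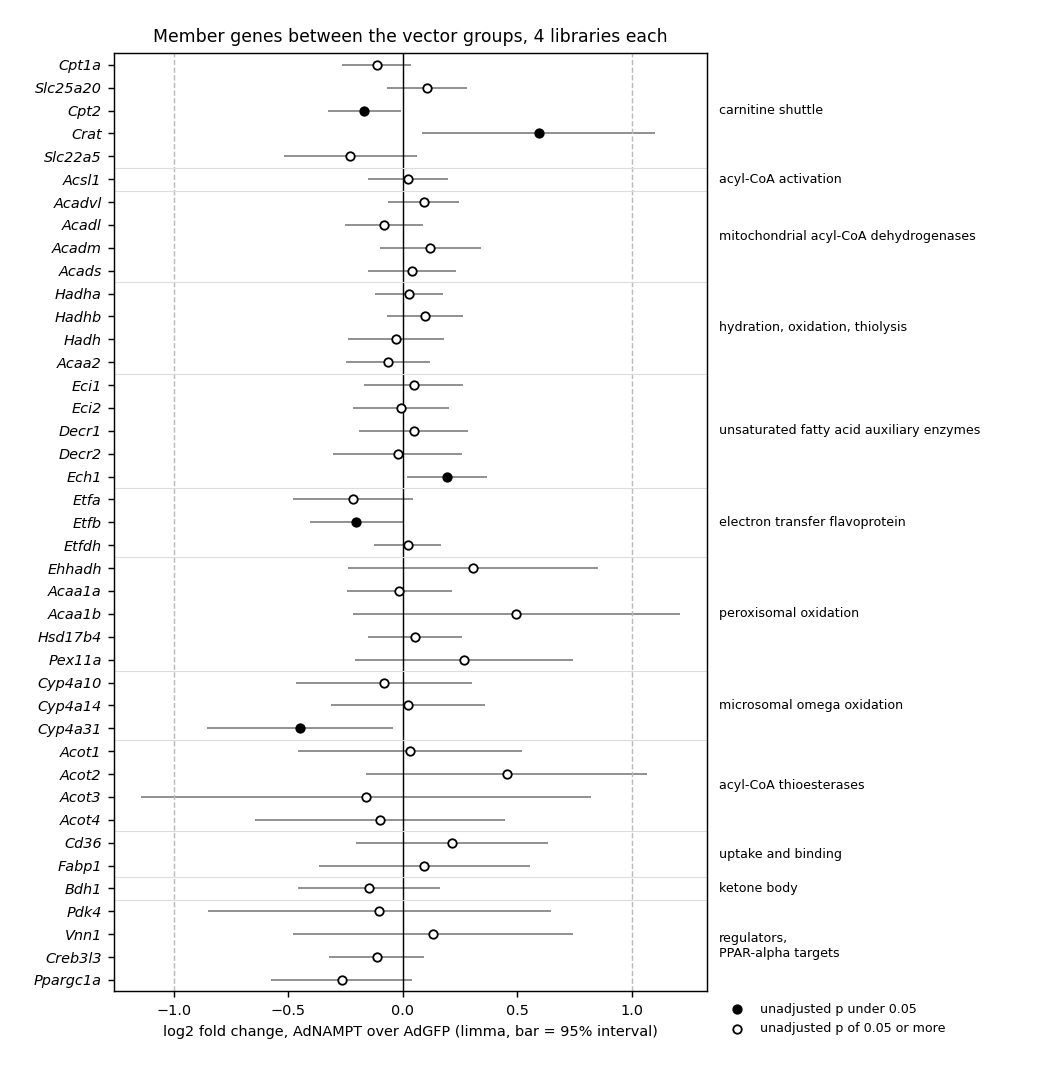
Log2 fold change of AdNAMPT over AdGFP for each of the 41 members (horizontal axis, points with 95% intervals from limma), ordered by role, with dashed lines at 2-fold in each direction. The enzymes of mitochondrial beta-oxidation sit near 0 with short bars, whereas the bars of Crat, Acot2, Acaa1b and Acot3 reach past 2-fold.

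The carnitine role held 5 members, those of the shuttle that carries acyl groups across the inner mitochondrial membrane and other carnitine genes. Of the 5, 2 were higher, 3 were lower and none was called. Cpt1a (ENSMUSG00000024900), the malonyl-CoA-sensitive enzyme that commits long-chain acyl groups to oxidation, stood at 408, 406, 425 and 425 TMM-scaled CPM in AdGFP and 374, 367, 411 and 394 in AdNAMPT. AdNAMPT replicates 1, 2 and 4 lay below every AdGFP library and replicate 3 lay inside the AdGFP range (log2 fold change -0.12, SE 0.07, adjusted p = 0.636). Cpt2 (ENSMUSG00000028607, GRCm38 chr4:107903981-107923610, minus strand), which returns the acyl group to CoA inside the mitochondrion, stood at 148, 154, 155 and 170.1 TMM-scaled CPM in AdGFP and 151, 135, 134 and 149 in AdNAMPT. AdNAMPT replicates 2 and 3 lay below every AdGFP library, while replicates 1 and 4 lay inside the AdGFP range (log2 fold change -0.17, SE 0.07, adjusted p = 0.503, unadjusted p = 0.041).

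Crat (ENSMUSG00000026853, GRCm38 chr2:30400471-30415813, minus strand) encodes carnitine acetyltransferase, which buffers the acetyl-CoA pool, and had the largest fold change of any member. Its levels were 24.4, 52.1, 30.3 and 30.5 TMM-scaled CPM in AdGFP and 25.9, 41.9, 62.005 and 55.3 in AdNAMPT. AdNAMPT replicates 3 and 4 were the highest of the 8, but AdGFP replicate 2 stood above AdNAMPT replicate 2, and AdNAMPT replicate 1 lay within the AdGFP range (log2 fold change 0.59, SE 0.23, adjusted p = 0.476, unadjusted p = 0.026). Exons of Crat overlap Dolpp1 and Gm16323 on the other strand, and whether counting used strand is not given in the sources used here. Without AdNAMPT replicate 1 the log2 fold change was 0.76 with SE 0.20 and the adjusted p was 0.228. The carnitine importer Slc22a5 stood at 26.5, 24.5, 37.0 and 29.8 TMM-scaled CPM in AdGFP and 27.1, 23.6, 29.3 and 23.2 in AdNAMPT. AdGFP replicate 3 was the highest and the other 7 libraries intermingled (log2 fold change -0.23, SE 0.13, adjusted p = 0.631). The carnitine-acylcarnitine exchanger Slc25a20 had a log2 fold change of 0.11 (SE 0.08).

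Enzymes of acyl-CoA activation and of the mitochondrial spiral were the most even of the set. The acyl-CoA synthetase Acsl1, the 4 chain-length-specific acyl-CoA dehydrogenases (Acadvl, Acadl, Acadm and Acads) and the 4 enzymes of hydration, second oxidation and thiolysis (Hadha, Hadhb, Hadh and Acaa2) had log2 fold changes of -0.08 to 0.12, and their adjusted p ran from 0.727 to 0.960. The widest of these 9 intervals reached a 1.27-fold difference, that of Acadm. Hadha (ENSMUSG00000025745), the alpha subunit of the trifunctional protein, stood at 436, 453, 454 and 463 TMM-scaled CPM in AdGFP and 434, 479, 439 and 465 in AdNAMPT. The libraries spanned 1.104-fold from lowest to highest, the narrowest range of any member, and both groups covered nearly the same values (log2 fold change 0.03, SE 0.07, adjusted p = 0.937). Acadm, the medium-chain dehydrogenase, stood at 346, 435, 399 and 356 TMM-scaled CPM in AdGFP and 341, 447, 378 and 425 in AdNAMPT. Replicate 1 was the lowest library in each group and replicate 2 the highest in each (log2 fold change 0.12, SE 0.10, adjusted p = 0.742).

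Hadhb, the beta subunit of the same protein as Hadha, was listed at 5.08 RPKM (CPM divided by exon length, the scale on which genes are compared here) averaged over the 8 libraries, against 83.3 for Hadha. Of the 50-base windows in its longest coding sequence, 90.4% also occur in another gene, most of them in the processed pseudogene Gm13910, and reads that align to several places were not counted. The low listed level of Hadhb is therefore uncertain, while its fold change (0.10, SE 0.08) compares the same countable bases in both groups.

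Auxiliary enzymes for the oxidation of unsaturated chains, listed without regard to compartment, numbered 5, of which 3 were higher and 2 lower. Ech1 (ENSMUSG00000053898, GRCm38 chr7:28825217-28832247, plus strand), a dienoyl-CoA isomerase of mitochondria and peroxisomes, stood at 385, 424, 437 and 389.7 TMM-scaled CPM in AdGFP and 398, 484, 466 and 467 in AdNAMPT. AdNAMPT replicates 2, 3 and 4 lay above every AdGFP library and AdNAMPT replicate 1 lay below AdGFP replicates 2 and 3 (log2 fold change 0.19, SE 0.08, adjusted p = 0.492, unadjusted p = 0.035). The isomerases Eci1 and Eci2 and the reductases Decr1 and Decr2 had log2 fold changes of -0.02 to 0.05.

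Electrons of the first dehydrogenation pass to the electron transfer flavoprotein, whose subunits Etfa and Etfb both had fold changes below 0, and from it to the ubiquinone reductase Etfdh. Etfb (ENSMUSG00000004610, GRCm38 chr7:43444108-43457800, plus strand) stood at 393, 341, 427 and 391 TMM-scaled CPM in AdGFP and 323, 349, 380.4 and 299.8 in AdNAMPT. AdNAMPT replicates 1 and 4 lay below all AdGFP libraries and replicates 2 and 3 inside their range (log2 fold change -0.20, SE 0.09, adjusted p = 0.513, unadjusted p = 0.049). Etfa stood at 110.1, 157, 108 and 121 TMM-scaled CPM in AdGFP and 106, 106, 112 and 86.8 in AdNAMPT. AdNAMPT replicate 4 was lowest and AdGFP replicate 2 highest, with the other 6 libraries between 106 and 121 TMM-scaled CPM (log2 fold change -0.22, SE 0.12, adjusted p = 0.603). For Etfdh the difference was smaller (log2 fold change 0.02, SE 0.07, adjusted p = 0.949), though the difference between these genes' fold changes was not tested.

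Most of the 5 peroxisomal members varied widely from mouse to mouse, with a median log2 SD within groups of 0.40 against 0.12 for the 4 mitochondrial acyl-CoA dehydrogenases. Peroxisomal genes outside the members did not all vary so, with 0.10 for Crot and Amacr and 1.05 for Abcd2. Ehhadh, the peroxisomal bifunctional enzyme and a standard PPAR-alpha target, stood at 417, 766, 610.4 and 551 TMM-scaled CPM in AdGFP and 284, 725, 789.7 and 859.7 in AdNAMPT. AdNAMPT replicate 1 was the lowest and replicates 3 and 4 the highest of the 8, so the lowest and the highest value both fell in AdNAMPT (log2 fold change 0.31, SE 0.25, adjusted p = 0.737). Acaa1b, an inducible peroxisomal thiolase, stood at 474, 1132, 926 and 749 TMM-scaled CPM in AdGFP and 423, 929, 1645 and 1327 in AdNAMPT. The same libraries stood at both ends, with AdNAMPT replicates 3 and 4 highest, AdNAMPT replicate 1 lowest and AdGFP replicate 1 next to it (log2 fold change 0.50, SE 0.33, adjusted p = 0.669).

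Pex11a, which promotes peroxisome division, stood at 34.3, 57.2, 58.7 and 43.5 TMM-scaled CPM in AdGFP and 47.3, 53.3, 83.6 and 42.0 in AdNAMPT. AdNAMPT replicate 3 was highest, AdGFP replicate 1 lowest and the groups overlapped (log2 fold change 0.27, SE 0.22, adjusted p = 0.737). Hsd17b4, the second bifunctional enzyme, and the constitutive thiolase Acaa1a differed by 0.05 (SE 0.09) and -0.02 (SE 0.10). Acaa1a and Acaa1b share 37.9% of their 50-base coding windows with each other, and reads wholly inside those windows align to both and were not counted.

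CYP4A monooxygenases of the microsomes add the omega hydroxyl group, and Cyp4a10 and Cyp4a14 are among the genes that respond most to PPAR-alpha ligands in mouse liver. Cyp4a10 stood at 1252, 1311, 1619.8 and 1305 TMM-scaled CPM in AdGFP and 684, 1448, 1260.5 and 1545 in AdNAMPT. Only AdNAMPT replicate 1 lay apart, below the other 7 libraries, which lay between 1252 and 1619.8 TMM-scaled CPM (log2 fold change -0.08, SE 0.17, adjusted p = 0.923, and 0.04 without that library). Cyp4a14 stood at 2147, 2171, 2443 and 1769.7 TMM-scaled CPM in AdGFP and 1353, 2467, 2022 and 2279 in AdNAMPT. The lowest library was again AdNAMPT replicate 1, with AdGFP replicate 4 next (log2 fold change 0.02, SE 0.15, adjusted p = 0.981, and 0.09 without AdNAMPT replicate 1). Cyp4a31 (ENSMUSG00000028712, GRCm38 chr4:115563649-115579015, plus strand), a paralog, stood far lower at 9.18, 5.14, 8.92 and 7.94 TMM-scaled CPM in AdGFP and 7.58, 5.66, 4.96 and 6.78 in AdNAMPT. AdGFP replicates 1, 3 and 4 were the 3 highest libraries and AdGFP replicate 2 the second lowest (log2 fold change -0.45, SE 0.18, adjusted p = 0.492, unadjusted p = 0.033). Of their coding windows, 40.5% in Cyp4a10 and 31.6% in Cyp4a31 are shared, mostly with Cyp4a32, so the split among these paralogs is uncertain.

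Acyl-CoA thioesterases release free fatty acid and CoA, and their genes Acot1, Acot2, Acot3 and Acot4 lie side by side on chromosome 12. Acot1, the cytosolic enzyme, stood at 23.1, 36.8, 41.5 and 27.2 TMM-scaled CPM in AdGFP and 19.995, 26.1, 40.8 and 37.8 in AdNAMPT. Replicate 1 was the lowest library of each group and replicate 3 the highest of each (log2 fold change 0.03, SE 0.22, adjusted p = 0.981, and 0.18 without AdNAMPT replicate 1). Acot2, the mitochondrial enzyme, stood at 13.7, 21.5, 19.2 and 13.7 TMM-scaled CPM in AdGFP and 8.38, 18.9, 31.974 and 27.9 in AdNAMPT. AdNAMPT held both the highest values, in replicates 3 and 4, and the lowest, in replicate 1 (log2 fold change 0.45, SE 0.28, adjusted p = 0.646).

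Acot3 (ENSMUSG00000021228, GRCm38 chr12:84052144-84059565, plus strand), a peroxisomal thioesterase, varied most of all members and stood at 61.4, 118, 87.9 and 123 TMM-scaled CPM in AdGFP and 17.3, 66.2, 175 and 116 in AdNAMPT. The lowest and the highest library were both AdNAMPT, 9.84-fold apart, and all 4 AdGFP libraries fell between them (log2 fold change -0.16, SE 0.45, adjusted p = 0.945, 95% interval -1.14 to 0.82). Without AdNAMPT replicate 1 its log2 fold change was 0.29, and without AdNAMPT replicate 3 it was -0.62. Its peroxisomal paralog Acot4 showed the same extremes, AdNAMPT replicates 1 and 3, with a 3.36-fold range and a log2 fold change that went from -0.10 to 0.11 without AdNAMPT replicate 1. From 20.6% (Acot4) to 59.1% (Acot1) of the coding windows of these 4 genes also occur in genes at other positions, chiefly each other, Acot5 and Acot6, and reads wholly inside such windows were not counted, so their listed levels are uncertain. Exons of Acot3 and Acot4 also overlap 4732463B04Rik on the other strand.

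Fabp1, the liver fatty acid binding protein, was the most abundant member at 8827 RPKM, and Cd36, a fatty acid translocase of hepatocytes, macrophages and endothelium, stood at 132 RPKM. Fabp1 was measured at 4401, 5034, 5832 and 4134 TMM-scaled CPM in AdGFP and 2670.4, 4556, 7124 and 5984 in AdNAMPT. AdNAMPT again held both extremes, replicate 1 lowest and replicate 3 highest (log2 fold change 0.09, SE 0.21, adjusted p = 0.927, with 0.29 without replicate 1 and -0.11 without replicate 3). Cd36 stood at 334, 626, 599.7 and 473 TMM-scaled CPM in AdGFP and 419, 549, 603 and 608 in AdNAMPT. AdGFP replicates 1 and 4 were 2 of the 3 lowest libraries and AdNAMPT replicate 1 the other (log2 fold change 0.21, SE 0.19, adjusted p = 0.762).

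Because Cd36 is also made by other liver cells, their markers are given beside it. The 8 Kupffer and macrophage markers all had log2 fold changes below 0 in the limma fit. Of these, 0 passed the adjusted threshold and 3 had an unadjusted p under 0.05, where 9.69% of all genes did. Sums of the 8 were 273 to 345 TMM-scaled CPM in AdGFP and 184 to 314 in AdNAMPT, with no marker at 0 in all libraries. The 6 sinusoidal endothelial markers summed to 249 to 284 in AdGFP and 243 to 281 in AdNAMPT. Their part in the Cd36 values was not tested. In bulk tissue, fewer cells of a type and less RNA per cell cannot be told apart. Hepatocyte markers (5 of 6 listed had a row) summed to 84278 to 115810 TMM-scaled CPM, while 6 T and B cell markers and 5 adipocyte markers each summed to 3.71 or less in every library. The libraries thus carried the markers of the labelled tissue, liver.

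Bdh1, which makes beta-hydroxybutyrate, stood at 214, 227, 225 and 231 TMM-scaled CPM in AdGFP and 114, 209, 231 and 225 in AdNAMPT. The level in AdNAMPT replicate 1 was under that of the other 7 libraries, which ran from 209 to 231 TMM-scaled CPM (log2 fold change -0.15, SE 0.14, adjusted p = 0.785). Without that library the log2 fold change was -0.01 (SE 0.07). Among regulators and other targets, Pdk4, the kinase that shuts off pyruvate oxidation, was the least abundant member at 1.88 RPKM and stood at 4.88, 8.28, 7.18 and 7.63 TMM-scaled CPM in AdGFP and 2.82, 3.96, 12.1 and 7.13 in AdNAMPT. AdNAMPT replicates 1 and 2 were lowest and AdNAMPT replicate 3 highest (log2 fold change -0.10, SE 0.34, adjusted p = 0.954). Its fold change turned to 0.16 without AdNAMPT replicate 1 and to 0.39 without AdNAMPT replicate 2, and was -0.65 without AdNAMPT replicate 3. Vnn1, a pantetheinase whose gene PPAR-alpha controls, stood at 53.6, 94.6, 81.9 and 70.8 TMM-scaled CPM in AdGFP and 27.0, 79.2, 102 and 99.3 in AdNAMPT. The extremes were AdNAMPT replicate 1 at the low end and AdNAMPT replicates 3 and 4 at the high end (log2 fold change 0.13, SE 0.28, adjusted p = 0.922, and 0.38 without AdNAMPT replicate 1).

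Ppargc1a, the coactivator that fasting induces, ran the other way among the libraries and stood at 18.8, 16.6, 20.4 and 15.0 TMM-scaled CPM in AdGFP and 21.5, 15.8, 12.7 and 13.6 in AdNAMPT. AdNAMPT replicate 1 was the highest of the 8 and AdNAMPT replicates 3 and 4 the lowest, and AdGFP replicates fell between (log2 fold change -0.27, SE 0.14, adjusted p = 0.583). Without AdNAMPT replicate 1 its log2 fold change was -0.36 (adjusted p = 0.372). Creb3l3, a hepatic transcription factor that acts with PPAR-alpha, differed by -0.11 (SE 0.09).

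Levels of the 41 genes spanned 4684-fold in mean RPKM. Fabp1 stood far above the next, Acaa2 at 819, Cyp4a14 at 784, Cyp4a10 at 605 and Acaa1b at 477 RPKM. At the low end came Pdk4 at 1.88, Ppargc1a at 2.48 and Cyp4a31 at 2.74 RPKM. These levels are per length of the annotated exons and count unique reads only. Those of Hadhb, Acaa1a, Acaa1b, Cyp4a10, Cyp4a31 and the thioesterase genes therefore leave out reads from shared windows. The same holds for Slc22a5 (19.4% of coding windows, shared mostly with Slc22a21) and Eci2 (10.9%, with Eci3). For smaller shares it holds for Acadm, Etfa and Cyp4a14.

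The spread among mice, taken as the SD of log2 TMM-scaled CPM within groups pooled over both groups, ran from 0.05 for Hadha to 1.07 for Acot3. Its median was 0.21 for the members and 0.17 for all genes tested, with 22 members above the latter and 19 below. By listed role, which does not follow compartment for every enzyme, the set divided unevenly. The carnitine, acyl-CoA activation, mitochondrial spiral, unsaturated-chain auxiliary and electron transfer roles held 22 members. Of these, 17 were below the median spread of all genes and 5 above (Crat, Slc22a5, Decr1, Decr2 and Etfa), with a median spread of 0.12. Of the 19 peroxisomal, omega oxidation, thioesterase, uptake, ketone body and regulatory members, 17 were above it and 2 below (Hsd17b4 and Creb3l3), with a median spread of 0.40. Without AdNAMPT replicate 1, against a median of 0.15 over all genes, 4 of the 22 and 15 of the 19 were above it, with medians of 0.10 and 0.30, and these 19 were all among the 22 wide members counted with every library. Pathway genes outside the members did not all follow this split by role. With every library, the peroxisomal list held Cat at 0.07, Crot and Amacr at 0.10, Hacl1 at 0.37 and Abcd2 at 1.05. The list of other mitochondrial oxidation genes held Echs1 at 0.13, Acsl3 at 0.64 and Acacb at 0.84. The split therefore describes the listed members and not the compartments.

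**Figure D2:**
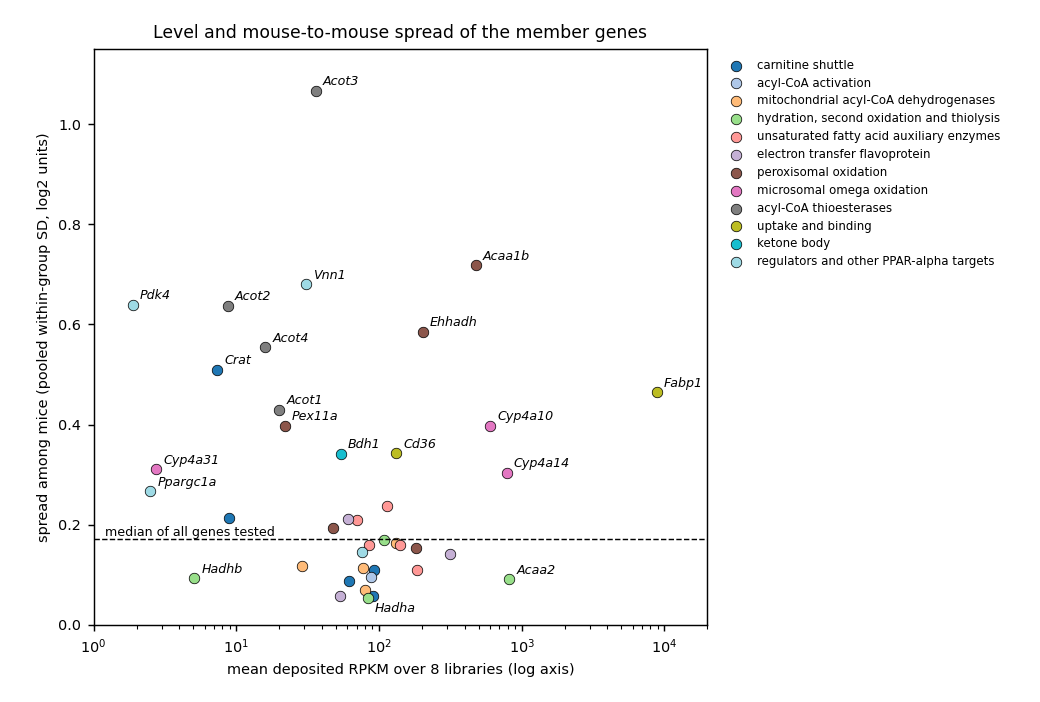
Spread among mice (vertical axis, pooled within-group SD in log2 units) against mean deposited RPKM over the 8 libraries (horizontal, log axis) for the 41 members, coloured by role, with the median spread of the 12270 tested genes as a dashed line. Mitochondrial enzymes lie mostly under the line at all levels, and Acot3 at 1.07, Acaa1b at 0.72 and Vnn1 at 0.68 lie highest.

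The same few libraries held the extremes of many members. For AdNAMPT replicate 1, the level was the lowest of the 8 libraries in 23 of the 41 members (56.1%), whereas it was lowest in 22.7% of all genes tested. AdGFP replicate 1 was lowest for another 8 (19.5%, against 10.2% of all genes), and AdNAMPT replicate 3 was highest for 16 (39.0%, against 12.7%). Of the 12 members with the widest spread, AdNAMPT replicate 1 was lowest in 10, AdNAMPT replicate 3 highest in 9 and AdGFP replicate 1 the lowest of its group in 10. Since these 12 were taken for their spread on the same libraries, the counts describe them and were not tested.

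**Figure D3:**
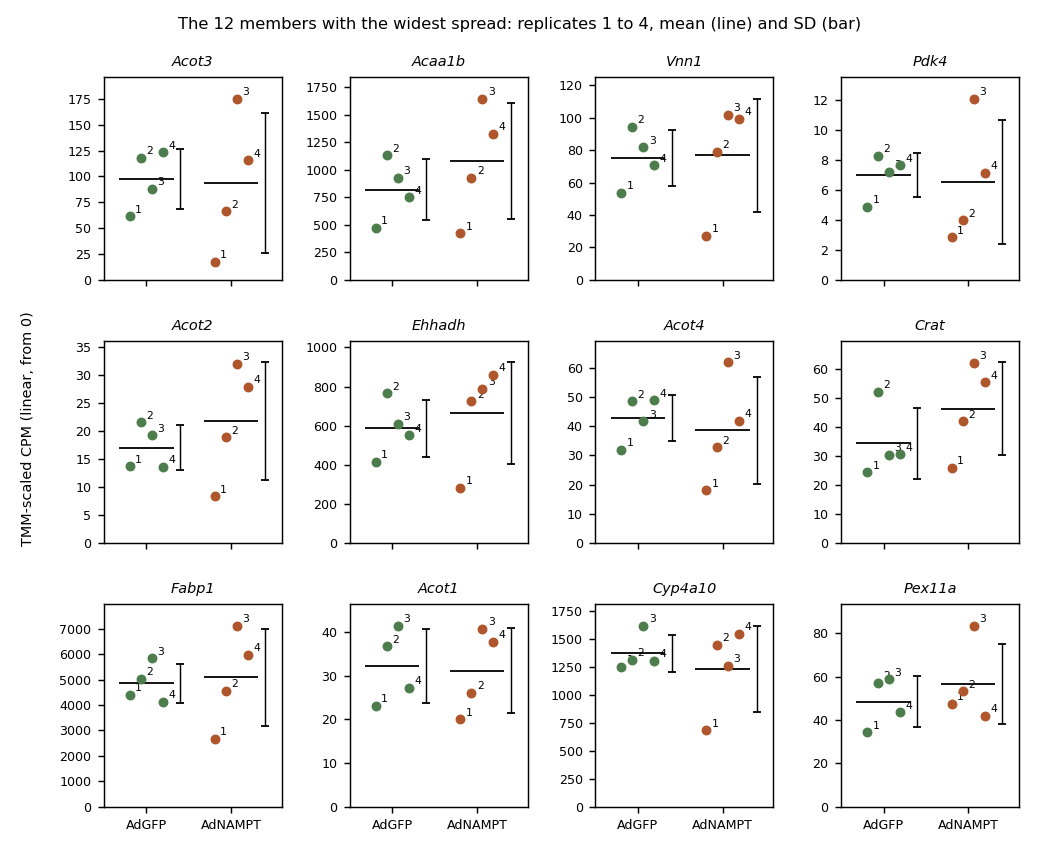
TMM-scaled CPM (vertical axes, linear from 0) of the 12 members with the widest spread in each AdGFP and AdNAMPT mouse, numbered by replicate, with the group mean as a line and 1 SD as a bar. AdNAMPT replicate 1 is the lowest of the 8 in 10 panels, and the groups overlap in every panel.

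Taking the median over members of each library's log2 difference from the gene mean, the 22 wide members stood at -0.26, 0.21, 0.17 and -0.04 in AdGFP and -0.60, -0.03, 0.35 and 0.17 in AdNAMPT. The 19 narrow members stood at -0.08, 0.00, 0.03 and 0.03 in AdGFP and -0.10, 0.05, 0.04 and 0.03 in AdNAMPT. Replicate 1 was the lowest of each group in both classes. The classes were split by spread on these same libraries, so larger differences in the wide class follow from the split and were not tested. AdNAMPT replicate 1 lay below the gene mean for 20 of the 22 wide and 14 of the 19 narrow members, and AdGFP replicate 1 for 18 and 15 of them. Over all genes tested the same median lay between -0.00 and 0.01 in every library.

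**Figure D4:**
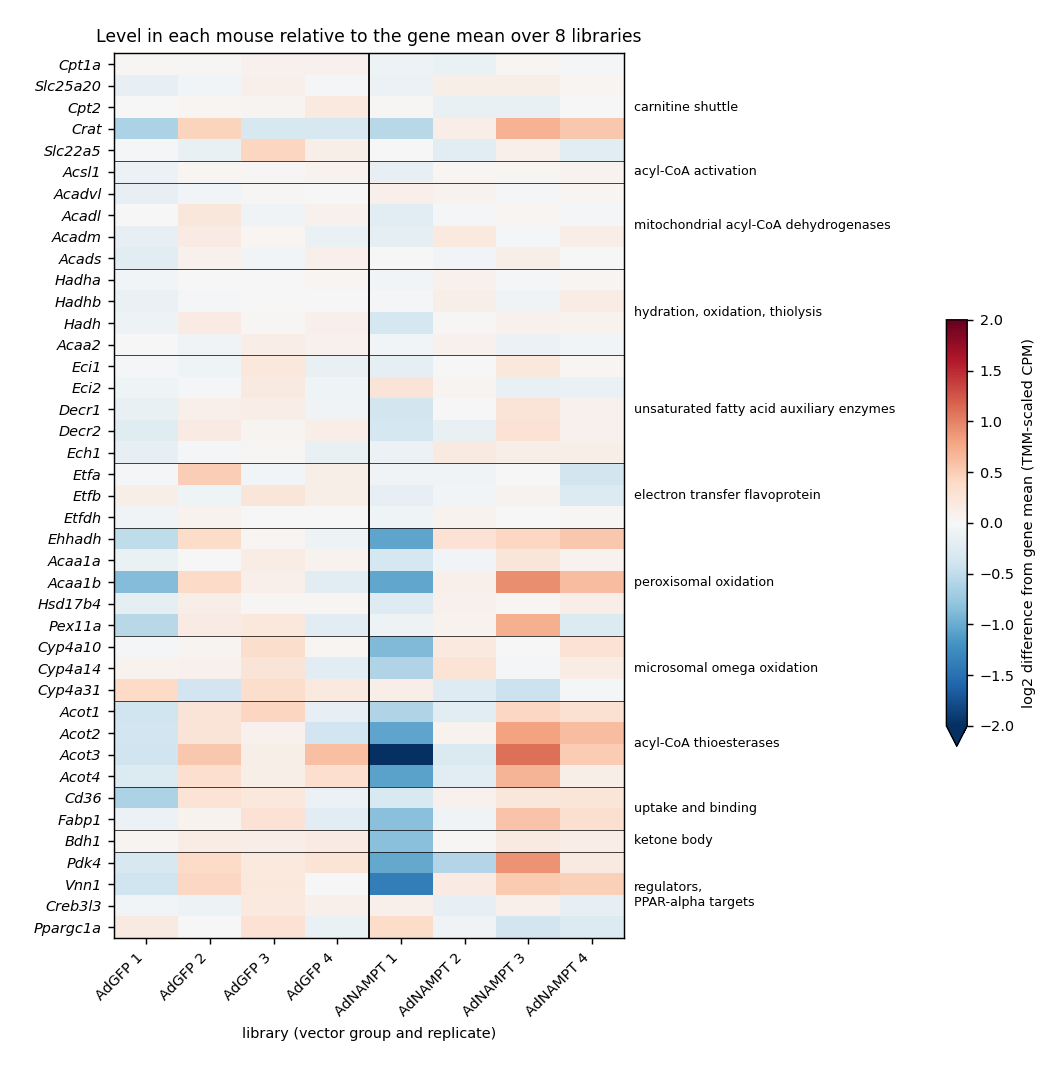
Log2 difference of TMM-scaled CPM from the gene mean over the 8 libraries (colour, red higher and blue lower) for the 41 members in order of role (rows) in each library (columns). Blue cells of AdNAMPT replicate 1 gather in the peroxisomal, omega oxidation, thioesterase and uptake rows and in Pdk4 and Vnn1, AdGFP replicate 1 is blue in many of these rows and AdNAMPT replicate 3 red, whereas most mitochondrial rows stay pale.

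Other gene lists are given beside the members. The 6 genes listed as raised by feeding and insulin (Srebf1, Fasn, Acly, Pklr, Acaca and Scd1) summed to 3883, 24019, 9605 and 7484 TMM-scaled CPM in AdGFP and to 3604, 16163, 28929 and 24663 in AdNAMPT. Their lowest libraries, AdNAMPT replicate 1 and then AdGFP replicate 1, were also the lowest for the wide members, and AdNAMPT replicate 3 was the highest for both. All 6 had log2 fold changes above 0, with 0 called and 0 at an unadjusted p under 0.05. The 6 fasting genes (Pck1, G6pc, Igfbp1, Igfbp2, Tat and Sds) all had log2 fold changes below 0, with 0 called and 2 at an unadjusted p under 0.05. Their sums were 6029, 5589.5, 8418.5 and 7084.5 TMM-scaled CPM in AdGFP and 6513.6, 4953.5, 5356 and 3881.6 in AdNAMPT. Here AdGFP replicate 3 was highest and AdNAMPT replicate 4 lowest, with replicate 1 of each group between them. Of 12 clock genes tested, 5 had fold changes above 0 and 7 below, with 0 called and 2 at an unadjusted p under 0.05. Among all genes tested, 9.69% had such a p. The sums of sex-biased genes set AdNAMPT replicate 1 apart but not AdGFP replicate 1, whose female-biased sum was 1171 and male-biased sum 687. The part of feeding state, sex-biased expression or library quality in the member values was not tested.

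**Figure D5:**
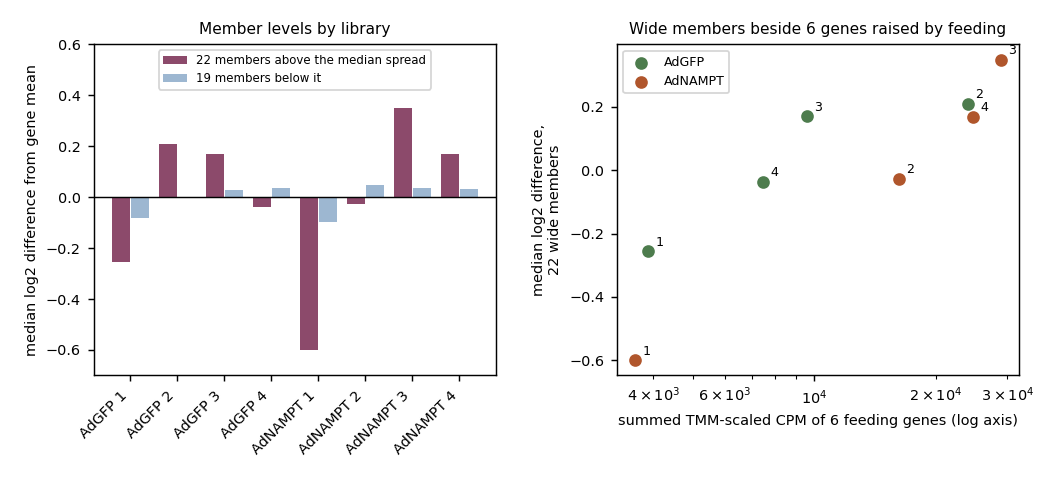
Left, median log2 difference from the gene mean (vertical axis) of the 22 wide and 19 narrow members in each library, classes split by spread on the same libraries. Right, the same median for the wide members against the summed TMM-scaled CPM of 6 feeding genes (horizontal, log axis), points numbered by replicate and coloured by group, where replicate 1 of each group lies at the lower left and AdNAMPT replicate 3 at the upper right.

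Without AdNAMPT replicate 1, fold changes were higher in AdNAMPT for 29 of the 41 members with a median of 0.08, and 9 members had an unadjusted p under 0.05, where 10.5% of all genes did. These 9 were Crat, Acot2, Ehhadh, Acaa1b, Vnn1 and Ech1 on the higher side and Ppargc1a, Cyp4a31 and Cpt2 on the lower, with adjusted p from 0.228 for Crat to 0.464 for Cpt2. In 7 members (Hadh, Decr2, Acaa1a, Cyp4a10, Acot3, Acot4 and Pdk4) the fold change turned from below 0 to above it. The shares of all genes that were higher or that turned in that fit are not given here. The 29 and the 7 therefore have no background and cannot be read as a rise of the set. Without AdNAMPT replicate 1, Ehhadh had a log2 fold change of 0.51 (SE 0.17), Acaa1b of 0.77 (SE 0.27) and Acot2 of 0.69 (SE 0.19). Leaving out AdNAMPT replicate 3 instead gave 0.23, 0.23 and 0.17 for Ehhadh, Acaa1b and Acot2. With every library but no sample weights the values were 0.08, 0.28 and 0.28.

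Promoters of the members, and all promoters beside them, were searched for the PPAR response element, a direct repeat of AGGTCA with 1 base between the copies. RefSeq promoters on GRCm38.p6, from 250 bases before to 50 bases after each start site, were found for 33 of the 41 members, 37 promoters in all. On either strand, the exact letters AGGTCANAGGTCA occurred in 0 of these 37 and in 13 of all 32851 promoters (0.0396%). With the fourth base of each copy free, AGGNCANAGGNCA, 1 member promoter held it against 0.381% of all promoters, that of Fabp1. With 1 other letter also allowed to differ, a form added after the data were seen, 7 member promoters held it (18.9%) against 4.71% of all. Absence of these letters from such short windows says nothing of sites elsewhere in a gene.

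The bases before the annotated starts of 2 wide members are shown with the matched letters in capitals, read here on their complementary strand. The first stretch runs over GRCm38.p6 chr6:71199629-71199826 on the plus strand, ahead of the annotated start of Fabp1, and the second over chr12:84038129-84038378 on the plus strand, ahead of Acot4. Fabp1 matched with only the fourth bases free, and Acot4 only in the form with 1 other letter off, added after the data were seen.
Fabp1: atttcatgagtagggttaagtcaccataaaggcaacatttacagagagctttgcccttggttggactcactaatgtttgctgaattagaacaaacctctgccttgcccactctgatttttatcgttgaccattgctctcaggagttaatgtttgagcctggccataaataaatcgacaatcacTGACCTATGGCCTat
Acot4: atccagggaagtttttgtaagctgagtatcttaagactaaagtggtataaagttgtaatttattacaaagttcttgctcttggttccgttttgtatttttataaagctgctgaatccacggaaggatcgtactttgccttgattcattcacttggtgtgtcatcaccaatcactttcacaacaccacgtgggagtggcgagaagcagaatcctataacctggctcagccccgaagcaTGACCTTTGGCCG
Read on the strand of the repeat, the matches of all 7 members are given for comparison, those of Fabp1, Acot4, Cd36 and Etfa in wide members and those of Etfb, Hadh and Creb3l3 in narrow members.
Fabp1: AGGCCATAGGTCA
Acot4: CGGCCAAAGGTCA
Cd36: AAGTCAGAGGCCA
Etfa: AGGGCAAAGGTAA
Etfb: AGGGGAAAGGGCA
Hadh: AGGACTCAGGCCA
Creb3l3: AGGGGAGAGGTCA
The match began 67 bases before the RefSeq start site in Fabp1 and 13 bases before it in Acot4. The RefSeq start sites used for Fabp1, Cd36 and Creb3l3 lie inside the annotated genes. These are matches of letters and not measured binding sites.

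Beyond the members, 91 other genes of the pathway were listed in 6 groups, and 87 were tested. None was called, with a lowest adjusted p of 0.228, and 8 (9.20%) had an unadjusted p under 0.05, against 9.69% of all genes. Fold changes were higher for 41 and lower for 46, with a median of -0.01. By list, 6 were higher and 15 lower among other peroxisomal genes, whereas 4 of the 5 peroxisomal members were higher. The counts were 8 and 12 for other mitochondrial oxidation, 3 and 5 for other omega oxidation and 12 and 6 for other PPAR-alpha targets. They were 8 and 8 for receptors and coregulators and 4 and 0 for ketone body genes. Ppara itself stood at 178, 184, 198 and 183 TMM-scaled CPM in AdGFP and 147, 177, 206 and 178 in AdNAMPT. The lowest and highest libraries were AdNAMPT replicates 1 and 3 (log2 fold change -0.05, SE 0.09, adjusted p = 0.910). On the log2 scale the fold change was 0.10 (SE 0.23) for the lipid droplet protein Plin2 and -0.33 (SE 0.19) for the lipase inhibitor Angptl4.

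Of the 8 at an unadjusted p under 0.05, only Retsat, a retinol saturase, was higher (log2 fold change 0.36, SE 0.15, adjusted p = 0.503). The other 7 were the propionyl-CoA carboxylase subunit Pcca, the peroxisomal genes Amacr, Crot, Pecr and Pxmp2, and the fatty acid hydroxylases Cyp4f14 and Cyp4f15, with log2 fold changes of -0.17 to -0.57. Cyp4f15 stood at 176, 167, 169 and 182 TMM-scaled CPM in AdGFP and 146, 146, 117 and 147 in AdNAMPT. All 4 AdNAMPT libraries lay below all 4 AdGFP libraries (log2 fold change -0.34, SE 0.08, adjusted p = 0.228). The same held for Crot, which moves medium-chain acyl groups onto carnitine in peroxisomes (log2 fold change -0.22, SE 0.08, adjusted p = 0.453), and for Pcca (log2 fold change -0.21, SE 0.08, adjusted p = 0.459), so 3 of the 87 had groups that did not overlap, against 4.79% of all genes. Fgf21, the hepatokine that PPAR-alpha induces, was under the filter and not tested, at 0.430, 0.690, 0.624 and 0.153 TMM-scaled CPM in AdGFP and 0.242, 1.30, 2.72 and 0.943 in AdNAMPT. AdGFP replicate 4 and AdNAMPT replicate 1 were at or under 3 counts, and the highest was AdNAMPT replicate 3. The number of pathway genes at an unadjusted p under 0.05 was 14 without AdGFP replicate 2, 14 without AdNAMPT replicate 1, 5 without AdGFP replicate 1 and 4 without AdGFP replicate 4, where 9.84%, 10.5%, 7.84% and 7.78% of all genes had such a p.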

How the data were processed

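Liver RNA of 4 AdGFP and 4 AdNAMPT db/db mice was compared, with groups taken from the sample titles. Per the labels and the study's methods, the authors aligned single reads of 50 bases to GRCm38 with STAR (version 2.4.0b in the processing notes) and used featureCounts 1.4.5 to count reads that align to 1 place and to 1 gene. Ribo-Zero appears in the labels and poly-A selection in the methods, and use of strand is not given in the sources used here. Deposited counts are whole numbers of reads for each gene. The deposited CPM values are counts scaled by the authors to the library total, and in the deposited RPKM these are further divided by exonic length. Recomputing both from the counts gave the deposited values. RPKM were used to compare levels between genes, and CPM for the filter.

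Members and lists were chosen with earlier results of these data known. Some genes of the lists are not reported here. Following the study's methods, 355 ribosomal RNA features and genes not above 1 CPM in at least 3 libraries (2 where 1 library was left out) were left out. Symbols came from GENCODE M21, on the same assembly. Counts were scaled by TMM and tested in limma (voomWithQualityWeights, then lmFit and eBayes) for the difference between groups, two-sided, without covariates, and Benjamini-Hochberg adjusted over all 12270 genes, with a threshold of 0.05. P-values in the text are from this fit unless another tool is named. They set the difference between groups against the spread between these 8 animals, as weighted by library and moderated across genes by eBayes. Levels are TMM-scaled CPM, with a pseudocount of 0.5 before log2. The fit was tested on simulated counts with changes larger than that of any member and with no library set apart. That run does not cover differences as small as those of the members or a library like AdNAMPT replicate 1. Members were named where the unadjusted p was under 0.05, where the groups did not overlap, where the fold change was among the 10 largest or the spread among the 5 largest, or where they were 1 of 11 listed by name; Bdh1, Acot4, Etfdh and others given with values were added after their values were seen. The alternatives were edgeR's quasi-likelihood and exact tests, DESeq2, no sample weights, other scaling, other filters, a replicate block and leaving out each library. Deviations from the group mean in libraries of the same replicate number had correlations of 0.23, -0.05, 0.22 and 0.00. AdGFP replicates 1 and 3 correlated best with the AdNAMPT library of their own number, and AdGFP replicates 2 and 4 with another. So few correlations cannot decide whether the numbers pair the mice. The fits ran in R 4.3.3 with DESeq2 1.42.0, edgeR 4.0.16 and limma 3.58.1, and tables and plots were made in Python 3.11.15 with matplotlib 3.10.9, numpy 2.4.6 and pandas 2.3.3.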

Additional observations from a re-analysis of the deposited data

Results flagged for a closer look

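In 4 of the 82 groups of 4 libraries formed by the 41 members, 1 library stood apart from the other 3 by a gap, relative to the group's whole range, above Dixon's 95% critical value for 4 samples. Chance marks about 1 group in 20, or 4.1 of 82. The long-chain acyl-CoA synthetase Acsl1 was at 758 TMM-scaled CPM in AdNAMPT replicate 1, against 869 to 889 in the rest of AdNAMPT. The dehydrogenase Hadh was at 428 in AdNAMPT replicate 1, against 556 to 583. The isomerase Eci2 was at 256 in AdGFP replicate 3, against 212 to 219.7 in the rest of AdGFP. Cyp4a10 was at 1619.8 in AdGFP replicate 3, against 1252 to 1311.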

How the results depend on the processing

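No member passed the adjusted threshold in the limma fit or in any of the 17 alternatives, where the lowest adjusted p of a member was 0.211. The 23 members named by rule gave 391 alternative values, of which 33 reversed the sign of the fold change and 0 passed the threshold. With an unadjusted p under 0.05 as the threshold, 5 members counted as changed. That count was 0 with edgeR's quasi-likelihood test, 0 with edgeR's exact test, 0 with DESeq2, 0 without sample weights, 3 with no filter on low counts, 3 with the replicate block, and from 1 to 9 when each library was left out in turn. Among the other pathway genes it was 5 with the quasi-likelihood test, 2 with the exact test, 13 with no filter, and from 4 to 14 with each library left out. Of all genes, 9.69% had such a p in the limma fit, 8% with quasi-likelihood, 6.70% with the exact test and 6.85% with DESeq2. That share was 7.83% without weights, 7.11% with no filter, 9.63% with the block and 7.78% to 12.1% with each library left out. Over all genes, 65 were called by the exact test and 75 by DESeq2 against 34 in limma, and 41 with the replicate block. The block changed no call of a member. The cause of these differences was not tested.

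Cyp4a14 turned to -0.0708 (quasi-likelihood), -0.0708 (exact), -0.0688 (DESeq2), -0.101 (no weights), -0.0144 (no filter) and -0.0605 (replicate block), and Acot1 to -0.0391, -0.0428, -0.0408, -0.0419, -0.0238 and -0.00927 in the same order. Without weights Fabp1 turned to -0.0245 and Vnn1 to -0.108, and with the replicate block Pdk4 turned to 0.0513. With each library left out, log2 fold changes ran from -0.014 to 0.0562 for Hadha, -0.148 to 0.0443 for Cyp4a10, -0.0833 to 0.0987 for Cyp4a14, -0.189 to 0.246 for Acot1, -0.616 to 0.287 for Acot3, -0.108 to 0.297 for Fabp1, -0.653 to 0.387 for Pdk4 and -0.041 to 0.384 for Vnn1.

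With deposited CPM in place of TMM-scaled CPM, the median over members of the log2 difference from the gene mean moved by less than 1 SD between libraries, but the lowest library became AdGFP replicate 1 (-0.176, from -0.134) in place of AdNAMPT replicate 1 (-0.114, from -0.187) and the highest AdNAMPT replicate 3 (0.177) in place of AdGFP replicate 3 (0.0761). AdGFP replicates 2 and 4 turned to -0.00839 and -0.00245. Over all genes that median then ran from -0.0765 to 0.0786. Depth was not limiting for most members, since 39 averaged at least 10 TMM-scaled CPM.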
